A study of Arabidopsis thaliana with 42 samples.

Results

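The comparison described here sets the hepta mutant of Arabidopsis thaliana against its wild type, Col. Members were chosen by sample title: the 3 arrays titled as hepta mutant and the 3 Col arrays of the same higher order mutant set, which together are 6 of the 42 arrays of the series. Hepta is one of several lines in which genes of the enzyme ACC synthase (ACS) are mutated. The labels used here do not list which ACS genes are mutated in hepta, their alleles, or how many independent lines stand behind the name.

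ACC synthase makes ACC, the direct precursor of the gaseous plant hormone ethylene, and is encoded by a small gene family. Ethylene is perceived by membrane receptors, and the signal reaches the transcription factor EIN3, which switches on ethylene-responsive genes. In seedlings the hormone is known for restraining elongation and for roles in senescence and in responses to wounding and pathogens.

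RNA came from whole light-grown seedlings 10 days old, on a medium with 1% sucrose at 25 C and 16 hours of light per day after a cold treatment of 2 days at 4 C. These conditions were the same for both genotypes. The higher order set also held a penta, a hexa and a miR line with 3 arrays each, and these 9 arrays served for direct comparisons with hepta and for the shared estimate of the spread. The titles call the arrays biological replicates. No label says that they came from separate cultures, so p-values reflect only array-to-array spread, which may be technical.

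Array medians of the 15 higher order arrays lay between 6.24 and 6.32 on the log2 scale. The median SD over probe sets was 0.0884 in hepta and 0.0855 in Col. Of 45 probe sets for bacterial and phage transcripts added to the samples, limma called 0 between hepta and Col, with 0 at an unadjusted p under 0.05. Between hepta and miR it called 2 of these 45, with 8 at an unadjusted p under 0.05, and their part in the differences from miR was not tested. The ACS genes were not analysed here, because none of the 11 ACS symbols of the annotation had a named probe set, so the mutations were not checked against transcript levels. Markers of root (3 measured), shoot and leaf (5) and seed and flower (1) gave 0 calls in the comparison, and 1 root marker was called with a trended robust prior. The summed root marker level was 12.94 to 13.13 in Col and 13.15 to 13.20 in hepta, that of shoot and leaf markers 8.57 to 8.79 and 8.51 to 8.67, and the seed and flower marker lay at 4.84 to 5.31 and 4.70 to 5.03. PYK10, a root beta-glucosidase, and YAB3, a gene of leaf polarity, marked both organs in these seedlings, at 12.99 and 7.62 in Col. In whole seedlings fewer cells of a type and less RNA per cell cannot be told apart.

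Hepta seedlings differed from Col at 2739 of 22746 probe sets, 12.0% of those tested. Of these, 1584 (6.96%) were higher in hepta and 1155 (5.08%) lower, and a second quantile normalization turned that balance to 1368 higher and 1420 lower. Most differences were small, with a median size of 0.42 on the log2 scale, and 210 probe sets (0.923%) were both called and changed by more than 2-fold, 122 higher (0.536%) and 88 lower (0.387%). A probe set was called at a Benjamini-Hochberg adjusted p below 0.05 from limma. In 2691 of the called probe sets every hepta array lay beyond every Col array, an arrangement that 28.6% of all probe sets showed. The count of calls was 1797 without Col replicate 1.

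Among probe sets with a single named gene AT1G66100 was the most changed. Its level was 10.97, 11.35 and 10.90 on the Col arrays and 4.36, 4.3 and 4.34 on the hepta arrays. The groups lay far apart, and the hepta values were close to 4.22, the level used as the limit for dim probe sets. The log2 difference was -6.74 ± 0.14 (SE; n = 3 and 3; adjusted p = 1.5e-15). With hepta so near the dim limit, the size of this difference depends on the background level of the probe set, and no fold is given. The penta line was at 11.09, hexa at 9.69 and miR at 4.52, so AT1G66100 was lower in hepta than in penta and hexa by limma, while the difference from miR, -0.19, did not pass (adjusted p = 0.48).

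ZW9 was the second most lowered gene. Col arrays stood at 10.68, 11.05 and 10.46 and hepta arrays at 6.39, 6.94 and 7.05. No hepta array came near the Col range, and the difference was -3.94 ± 0.19 (adjusted p = 3e-10). Hexa was intermediate at 9.60 ± 0.10 (SD, n = 3) and miR low at 6.50 ± 0.44.

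AT5G26260 and AT5G26270, neighbours by locus code on chromosome 5, fell together. AT5G26260 was at 8.29, 8.18 and 8.08 in Col and at 4.86, 5.09 and 4.58 in hepta. AT5G26270 was at 6.97, 7.36 and 7.03 in Col and at 4.51, 4.37 and 4.16 in hepta. Both separated the genotypes without overlap, by -3.34 ± 0.12 and -2.78 ± 0.11 (adjusted p = 4e-12 and 1e-11). Hexa and miR held both genes at similar low levels (4.72 and 5.12 for AT5G26260), and penta at the high level of 8.67.

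AT4G02540 was low in hepta alone of the 5 groups. Its Col values were 7.91, 8.08 and 8.19 and its hepta values 5.34, 5.07 and 4.80. The difference from Col was -2.99 ± 0.13 (adjusted p = 7.4e-11), and the direct differences from hexa, penta and miR were -3.21, -3.12 and -3.31, all called. Of the other large falls, AT1G63880 (-2.81 ± 0.16), AT1G65370 (-2.46 ± 0.17), AT1G54050 (-2.11 ± 0.20) and AT1G66540 (-2.05 ± 0.16) all lie on chromosome 1. The remaining members of the 15 largest falls were AT2G27420, AT1G54260, AT5G42760, AT1G56720, AT5G20790 and AT1G55960, with differences of -1.97 to -1.46.

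Among the rises AT3G62550 came first. It was at 6.26, 6.84 and 6.73 in Col and 9.42, 9.35 and 9.51 in hepta. All hepta arrays were well above Col, with a difference of 2.82 ± 0.20 (7.05-fold, adjusted p = 4.3e-08). The level in hepta also exceeded penta by 1.51, hexa by 1.37 and miR by 0.68, the last with adjusted p = 0.041.

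AT1G50290 was at 6.25, 6.49 and 6.36 in Col and at 9.15, 8.95 and 8.85 in hepta. The groups did not overlap (2.62 ± 0.09, adjusted p = 1.4e-12), while hexa and miR lay slightly higher still, at 9.62 and 9.34. AT5G15360 was likewise without overlap, at 5.94, 4.83 and 5.24 in Col against 7.92, 7.76 and 7.76 in hepta (2.48 ± 0.18). AT1G66800 was raised in hepta alone. It stood at 4.6, 4.45 and 4.34 in Col and 6.50, 7.06 and 6.92 in hepta, above hexa, penta and miR by 2.53, 1.91 and 2.21. CCL, known for a transcript of short half-life under clock control, rose by 1.76 ± 0.15 from 8.76, 9.42 and 8.97 to 10.75, 10.73 and 10.95. The other 10 of the 15 largest rises, among them AT3G62950, AT5G38020 and AT3G15630, differed by 1.54 to 1.92.

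**Figure D1:**
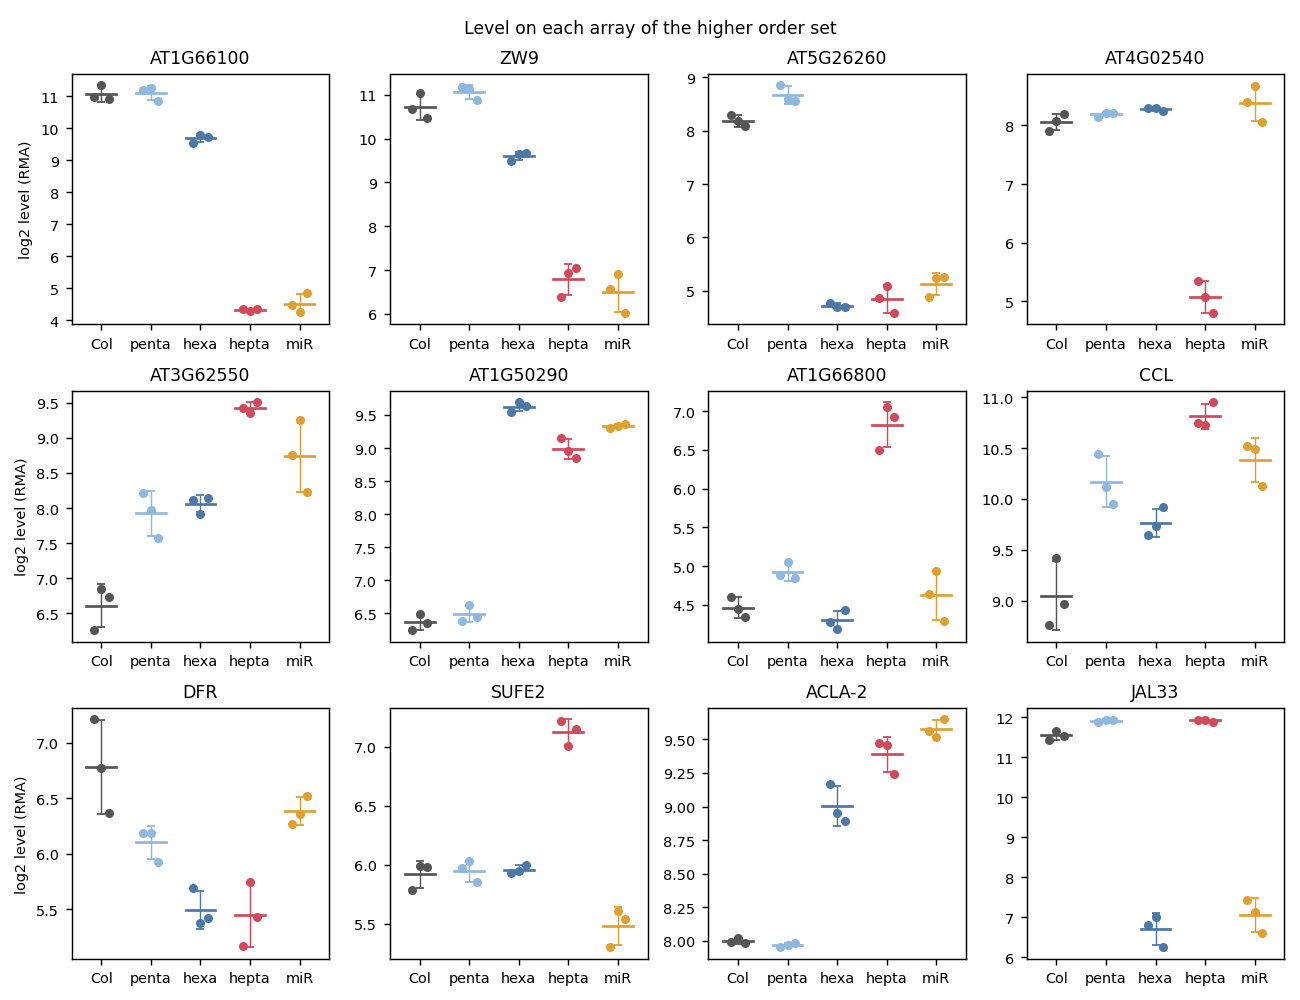
Log2 level (RMA) of 12 genes on each of the 15 higher order arrays, with 1 panel per gene, 1 point per array, a bar at the group mean and whiskers of 1 SD (n = 3); each panel has its own vertical scale. AT4G02540 is low and AT1G66800 and SUFE2 are high in hepta alone, AT1G66100 and ZW9 are low in hepta and miR, and JAL33 is low in hexa and miR but not in hepta.

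Since locus codes alone stand for most genes, those with a symbol were read by the same rule. CHX16, a cation/proton exchanger, rose by 1.49 ± 0.15 and ACLA-2, a subunit of the ATP citrate lyase that makes cytosolic acetyl-CoA, by 1.39 ± 0.08. ACLA-2 was very even in Col, at 7.99, 8.02 and 7.98, and stood at 9.47, 9.46 and 9.24 in hepta, without overlap. MCCB, a subunit of an enzyme of leucine breakdown, rose by 0.86 ± 0.07, GAT1_2.1, a glutamine amidotransferase-like protein, by 1.23 ± 0.13 and AKINBETA1, a regulatory subunit of the energy-sensing kinase SnRK1, by 0.87 ± 0.12.

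SUFE2, an activator of sulfur transfer in iron-sulfur cluster assembly, was at 5.79, 5.99 and 5.98 in Col and at 7.22, 7.01 and 7.15 in hepta. Its hepta arrays stood apart from all others, by 1.2 ± 0.09 from Col and by 1.17, 1.17 and 1.64 from hexa, penta and miR. ATL8, a RING-type ubiquitin ligase, rose by 1.08 ± 0.10, the cytochrome P450 gene CYP71B22 by 1.04 ± 0.10, the linker histone gene HIS1-3 by 0.91 ± 0.19 and Fes1B, a cofactor of Hsp70 chaperones, by 0.86 ± 0.07. JRG21 rose by 1.00 ± 0.28 (adjusted p = 0.028). The JRG21 call was lost with a trended robust prior (0.11) and without hepta replicate 1 (0.075), hepta replicate 3 (0.14) or Col replicate 1 (0.17).

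Falls among genes with a symbol included CHIL, a chalcone isomerase-like protein that aids flavonoid synthesis, at 8.31, 8.18 and 8.08 in Col and 6.63, 7.27 and 7.07 in hepta (-1.2 ± 0.12). TBL26, from a family of cell wall acetylation proteins, fell by -1.18 ± 0.21, with hepta replicate 1 lowest at 6.03 against 7.18 and 7.02. CSA1, an immune receptor of the TIR-NBS-LRR class, was even within both groups, at 6.73, 6.77 and 6.78 in Col and 5.76, 5.74 and 5.74 in hepta. Its difference from Col was -1.01 ± 0.11, and it lay above hexa by 1.49 and above miR by 1.88. THI2.2, an antimicrobial thionin, fell by -1.03 ± 0.11 and was also below hexa (-0.57), penta (-1.50) and miR (-1.18). ATB2 (-1.04), CRR28, a pentatricopeptide repeat protein of chloroplast RNA editing (-0.98 ± 0.12), ASPGB1, an asparaginase (-0.86 ± 0.12), and ATSPS4F, a sucrose phosphate synthase (-0.75 ± 0.10), were lower too.

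Pathway genes were read from 28 lists. Of their genes 209 had a probe set, and 47 of these (22.5%) were called, 20 higher and 27 lower. Over all probe sets 12.0% were called, 6.96% higher and 5.08% lower. The lists were chosen with earlier results of these data known, and their members are genes rather than probe sets. The gap between 22.5% and 12.0% is therefore not a test of the lists. Lists of ethylene synthesis and of small heat shock proteins had 0 measured members.

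**Figure D2:**
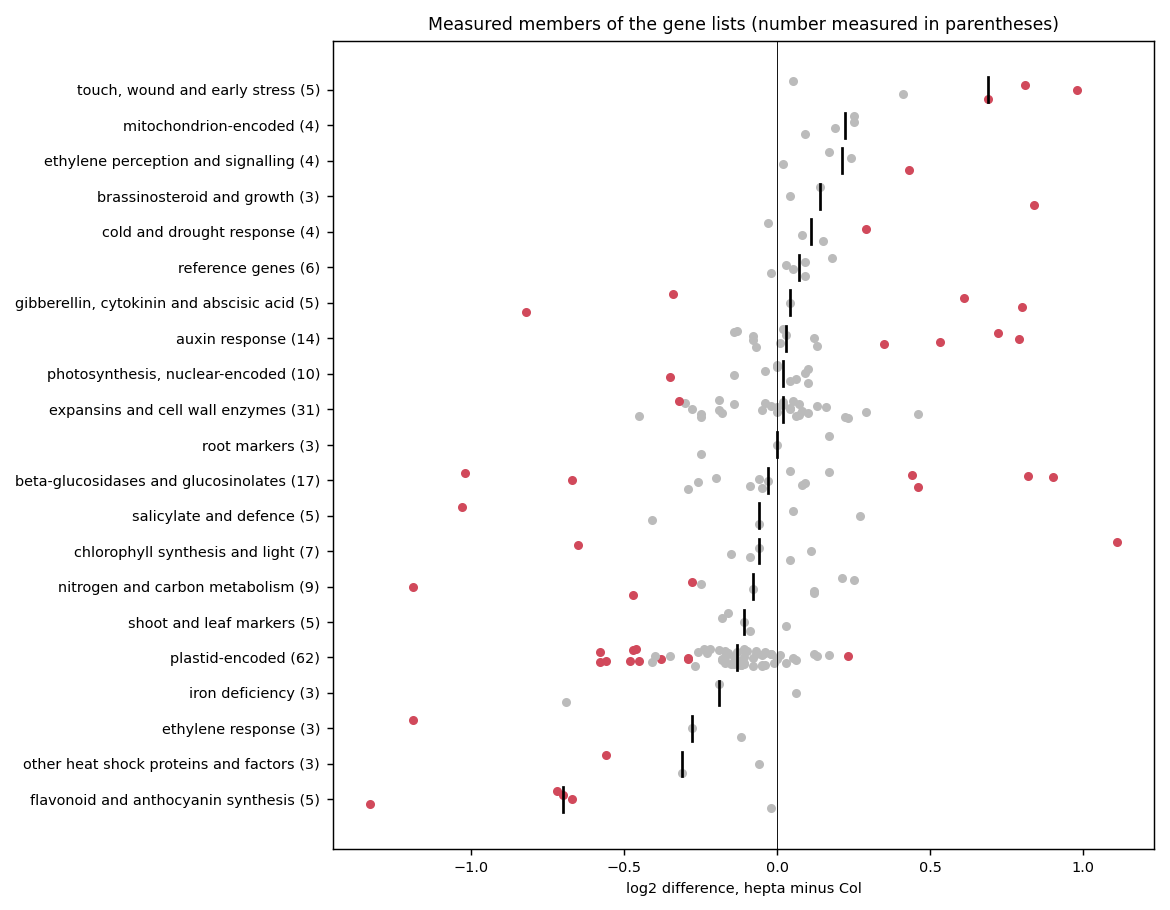
Log2 difference between hepta and Col for each measured member of the gene lists with at least 3 measured members; red points passed the limma test, grey points did not, and the black bar is the list's median. The flavonoid list lies furthest to the left (median -0.70), and 54 of 62 plastid-encoded genes lie below 0.

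Ethylene perception and signalling was covered by 4 genes. EIN3, the transcription factor at the head of the transcriptional response, was at 8.86, 8.97 and 9.08 in Col and 9.42, 9.28 and 9.52 in hepta. It rose in hepta without overlap, by 0.43 ± 0.08 (1.35-fold, adjusted p = 0.00089). RTE1, which promotes the function of the receptor ETR1, differed by 0.24 (adjusted p = 0.076), its homologue RTH by 0.17 and ETP2, an F-box protein that targets EIN2 for breakdown, by 0.02. EIN3 in hepta differed from hexa, penta and miR by 0.15, 0.19 and 0.15, none of them called. In the list of ethylene-responsive genes 1 of 3 was called, beside 12.0% of all probe sets. SAG29, a SWEET-type sugar transporter of senescing leaves, was at 8.04, 8.66 and 7.55 in Col and at 6.50, 7.12 and 7.06 in hepta (-1.19 ± 0.26, adjusted p = 0.0044). The defensin genes PDF1.2 and PDF1.2b differed by -0.12 and -0.28 and were not called.

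The flavonoid list had 5 measured genes of 48 entries, and 4 of the 5 were lower and 0 higher, with a median of -0.70 against 0.009 over all probe sets. Over all probe sets 5.08% were lower and 6.96% higher, and the list was chosen with earlier results of these data known. DFR, which makes leucoanthocyanidins, was at 7.21, 6.77 and 6.37 in Col and at 5.17, 5.75 and 5.43 in hepta. The Col arrays were spread widely but stayed above every hepta array (-1.33 ± 0.17, adjusted p = 3.2e-05). The flavonoid glycosyltransferases UGT78D2 (-0.72 ± 0.10), UGT78D1 (-0.70 ± 0.10) and UF3GT (-0.67 ± 0.12) were lower as well. BAN, of the seed-coat branch, was at 4.15 in hepta and 4.17 in Col and was not called. The count of 4 held without any 1 of the 6 arrays. DFR in hepta was below penta by -0.65 (adjusted p = 0.038) and miR by -0.93 (adjusted p = 0.0014) but differed from hexa by -0.04 (adjusted p = 0.94). UGT78D2, UGT78D1 and UF3GT in hepta were not called against hexa, penta or miR. Against Col, 4 list members were lower in hexa and 3 in penta, and the list median in miR was -0.55. Lower levels of these genes were thus not particular to hepta.

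Of 14 measured auxin genes 4 were higher and 0 lower, with a list median of 0.03. Over all probe sets 6.96% were higher and 5.08% lower. IAA29, an auxin-induced repressor of the Aux/IAA family, rose by 0.79 ± 0.15, from 5.04, 5.38 and 4.89 to 6.0, 6.06 and 5.62. WES1 (GH3.5), which conjugates auxin to amino acids, rose by 0.72 ± 0.08. IAA18, a further Aux/IAA repressor, was at 8.56, 8.50 and 8.51 in Col and 9.12, 9.10 and 8.92 in hepta, with 0.53 ± 0.07 from Col and 0.55, 0.52 and 0.56 from hexa, penta and miR, all called. GH3.3, of the WES1 family, stood 0.35 higher (adjusted p = 0.022). The GH3.3 call did not hold without hepta replicate 2 or 3 (0.083 and 0.061) and without Col replicate 1, 2 or 3 (0.069, 0.056 and 0.055).

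Among gibberellin, cytokinin and abscisic acid genes, the gibberellin receptors GID1A and GID1C rose. GID1A was at 6.44, 6.6 and 6.65 in Col and 7.34, 7.28 and 7.47 in hepta (0.80 ± 0.08, adjusted p = 4e-06), and GID1C differed by 0.61 ± 0.13. The third receptor, GID1B, differed by 0.04 (adjusted p = 0.84). ARR15, a type-A response regulator induced by cytokinin, fell by -0.82 ± 0.09, and its relative RR16 by -0.34, which was lost without hepta replicate 2 or 3 (0.059 and 0.070) or Col replicate 1 (0.074). ARL, a promoter of cell expansion in the brassinosteroid and growth list, rose by 0.84 ± 0.12, 1 of 3 measured members there.

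Of 5 measured touch, wound and early stress genes 3 were higher and 0 lower, beside 6.96% and 5.08% of all probe sets. WRKY22, a transcription factor of early defence, rose by 0.98 ± 0.17, from 5.17, 5.49 and 5.24 to 6.39, 6.16 and 6.3. WRKY53, linked to leaf senescence, rose by 0.81 ± 0.16. ORA47, a jasmonate-responsive AP2/ERF factor, differed by 0.69 (adjusted p = 0.015), a call lost without hepta replicate 2 (0.073) or Col replicate 1 or 3 (0.064 and 0.082). In the salicylate and defence list THI2.2 was the 1 call of 5 (2 on the 6 arrays alone). JMT, the methyltransferase that makes methyl jasmonate and the 1 measured member of the jasmonate list, fell by -0.46 ± 0.10. It was dim, at 4.40, 4.19 and 4.19 in Col and 3.61, 3.96 and 3.83 in hepta. The jasmonate list had 0 calls with dim probe sets (mean under 4.22) left out.

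Beta-glucosidases moved both ways. Of 17 measured genes of the beta-glucosidase and glucosinolate list 4 were higher and 2 lower, beside 6.96% and 5.08% of all probe sets. BGLU44 rose by 0.90 ± 0.08 and BGLU45, a glucosidase of lignin precursors, by 0.82 ± 0.08, while BGLU47 fell by -1.02 ± 0.09 and BGLU40 by -0.67 ± 0.10. BCAT4, which starts the methionine branch of glucosinolate synthesis, rose by 0.46 ± 0.08. BGLU46 differed by 0.44 (adjusted p = 0.041). The BGLU46 call did not hold in the fit of the 6 arrays alone (0.12), with quantile normalization applied again (0.053), or without hepta replicate 2 or 3 (0.064 and 0.19) or Col replicate 1 or 3 (0.23 and 0.053).

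Chloroplast transcripts leaned lower. Of 62 measured plastid-encoded genes 10 were lower and 1 higher, 54 differences were negative, and the median was -0.13. Among all probe sets 5.08% were lower and 6.96% higher. The ribosomal protein gene rpl14 was at 10.70, 10.75 and 10.65 in Col and 10.11, 10.09 and 10.16 in hepta (-0.58 ± 0.11, adjusted p = 0.0022). The genes ndhG (-0.58 ± 0.12) and ndhH (-0.56 ± 0.12) of the NADH dehydrogenase-like complex fell too, and psbE, of photosystem II, was the rise (0.23). The count of lower genes was 6 without hepta replicate 1, 5 without Col replicate 2 and 4 without Col replicate 1. The calls of ndhJ, ndhK, rpoC2, ycf3, petN, petL, psaI and psbE were each lost when at least 1 of the 6 arrays was left out (adjusted p = 0.057 to 0.18). The array's control for cytosolic 25S ribosomal RNA was lower in hepta as well, by -0.67, and its part in the plastid difference was not tested. Among 10 measured nuclear photosynthesis genes 0 were higher and LHCB4.3 alone was lower (-0.35), a call lost without Col replicate 3 (0.056).

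PORB, a protochlorophyllide reductase of chlorophyll synthesis, rose by 1.11 ± 0.15, from 8.94, 8.92 and 8.72 to 10.01, 10.16 and 9.74. HYH, a light-signalling factor related to HY5, fell by -0.65 ± 0.15, a call lost without Col replicate 1 (0.050). The clock gene GI differed by 0.38, lost without hepta replicate 2 or 3 (0.052 and 0.061) or Col replicate 2 (0.077). In the nitrogen and carbon list 3 of 9 were lower and 0 higher, beside 5.08% and 6.96% of all probe sets. They were SAG29, already given as the ethylene-responsive call, APL3, a starch synthesis subunit (-0.47 ± 0.11), and SWEET11, a sucrose exporter (-0.28). The SWEET11 call was lost on the 6 arrays alone (0.087) and without hepta replicate 2 or 3 (0.23 and 0.077) or Col replicate 1 or 3 (0.15 and 0.16).

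Lists with few or no calls complete the survey. Of 31 measured expansin and cell wall genes XTH32 alone was called (-0.32), a call lost without hepta replicate 1 or 2 (0.094 and 0.060) or Col replicate 1 or 2 (0.052 and 0.10). The list had 0 higher and 3 lower after a second quantile normalization, and 1 higher and 2 lower with dim probe sets left out, with a trended robust prior or without Col replicate 3. It had 1 higher and 1 lower without hepta replicate 2 or 3, 2 lower without Col replicate 2, and 0 calls without hepta replicate 1 or Col replicate 1. COR47 was the 1 call of 4 cold and drought genes (0.29), lost on the 6 arrays alone (0.087) and without hepta replicate 3 (0.17) or Col replicate 1 or 2 (0.090 and 0.13). Hsp70-2, a cytosolic chaperone, was the 1 call of 3 in the other heat shock list (-0.56 ± 0.11). Calls numbered 0 of 6 reference genes, 0 of 4 mitochondrion-encoded genes, 0 of 3 iron deficiency genes and 0 of 1 silencing gene. Of these, 1 mitochondrial gene was called without Col replicate 2, 1 iron deficiency gene without Col replicate 1 and the silencing gene on the 6 arrays alone. Families were read from symbol stems, a grouping added after the annotation was seen. They gave 5 higher and 7 lower of 47 UGT symbols, 4 higher of 26 CYP symbols and 2 higher of 14 GST symbols. GSTU20 (0.54) and GSTU15 (0.50) were the GST rises. Over all probe sets 6.96% were higher and 5.08% lower, and the family counts were not tested against these shares. The GST rises numbered 1 with dim probe sets left out. The UGT rises numbered 3 without hepta replicate 3 or Col replicate 1, the UGT falls 4 without hepta replicate 2 or Col replicate 3, and the CYP rises 2 without hepta replicate 1 and 1 without Col replicate 1.

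Direct comparisons set hepta beside the other lines, with the same hepta arrays in each. Hepta differed from hexa at 899 probe sets (3.95%), 551 higher (2.42%) and 348 lower (1.53%), and from penta at 815 (3.58%), 378 higher (1.66%) and 437 lower (1.92%). It differed from miR at 2182 (9.59%), 975 higher (4.29%) and 1207 lower (5.31%). The hexa count was 583, 585 and 575 without hepta replicate 2, hepta replicate 3 and hexa replicate 1. The miR count was 1411 without hepta replicate 1. Of the 15 largest rises over Col, 11 were also higher than hexa, 10 higher than penta and 4 higher than miR. AT1G50290 and AT5G15360 were called in the opposite direction, lower than hexa and lower than miR. Of the 15 largest falls, 10 were also lower than hexa, 15 lower than penta and 3 lower than miR.

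Among named genes the widest gap above hexa was at JAL33, a jacalin-type lectin, and the widest gap below it at AT1G66100 (-5.36). JAL33 was at 11.43, 11.66 and 11.54 in Col, 11.94, 11.92 and 11.89 in hepta, but 6.70 ± 0.40 in hexa and 7.05 ± 0.42 in miR. Hepta was higher than hexa by 5.22 (adjusted p = 1.8e-12), while its 0.37 over Col was not called (adjusted p = 0.21). AT3G21950 was 1.99 above hexa and 2.29 above miR, and its 0.19 over Col was not called. AT5G03350 was lower than Col by -1.35 ± 0.19 in hepta and stood above hexa by 2.38 and miR by 3.2. Against miR the widest negative gap was at AT4G02540 (-3.31), followed by AT2G15560 (-2.98), AT5G60250 (-2.43) and BHLH101 (-2.23), a regulator of iron uptake. The last 3 were not called against Col.

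Hepta stood on one side of Col, penta, hexa and miR together, called in the same direction in all 4 comparisons, at 99 probe sets (0.435%), 48 higher and 51 lower. These 4 comparisons share the hepta arrays, and the grouping was added after values were seen. A single gene was named for 64 of them. Besides AT1G66800, AT4G02540 and SUFE2, the gene AT5G38020 was at 8.62, 8.82 and 8.41 in Col and 10.38, 10.56 and 10.60 in hepta, at least 1.19 above each group. AT1G50280 (5.73 in hepta, 4.24 to 4.53 elsewhere) and AT1G53080 (5.46 against 4.27 to 4.38) were higher, and AT1G66620 (5.47 against 6.62 to 7.07) and AT1G49650 (6.07 against 6.98 to 7.27) lower. CKS, which activates the sugar KDO for the pectin rhamnogalacturonan II, was at 7.18 against 7.69 to 7.92.

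The changed genes were not evenly placed along the chromosomes. Genes were put in the order of the TAIR10.1 annotation, by which 12224 measured genes fell into 139 windows of 200 neighbouring protein-coding genes, and 11.6% of them were called between hepta and Col. The stretches below were picked after the values were seen and are described without a test. On chromosome 1, windows 21 to 29 of 36 held 799 measured genes, of which 167 (20.9%) were called, against 10.6% on the rest of that chromosome. That stretch held 9 of the 15 largest falls, AT1G66100 and ZW9 among them, and 4 of the 15 largest rises.

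**Figure D3:**
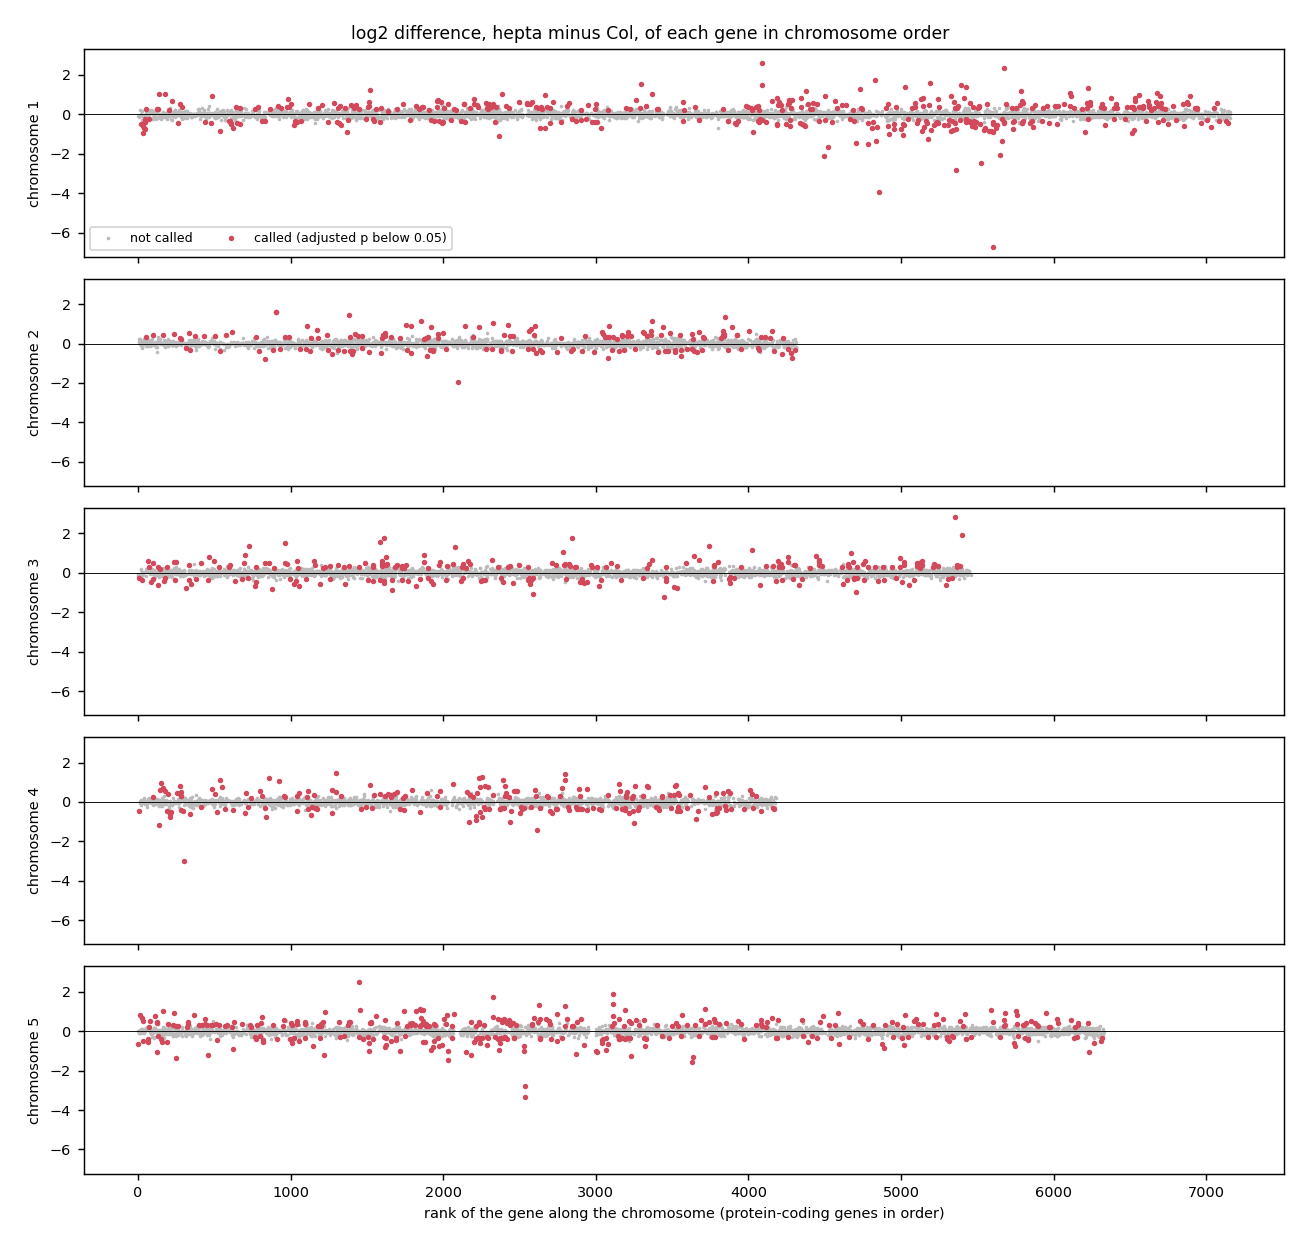
Log2 difference between hepta and Col for each measured gene, placed by its rank along chromosomes 1 to 5; red points passed the limma test and grey points did not. Falls beyond -2 gather in the second part of chromosome 1, with AT1G66100 at -6.74, and in the middle of chromosome 5, with a single one at the start of chromosome 4.

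On chromosome 5, windows 10 to 19 of 32 held 154 calls among 849 measured genes (18.1%, and 10.8% on the rest), with 4 of the 15 largest falls, AT5G26260 and AT5G26270 among them. The highest share of any window, 33.7%, was in window 12 there. Together the chromosome 1 and 5 stretches held 46 of the 105 called genes over 2-fold, 2.79% of their genes against 0.558% elsewhere.

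The stretches were read in the direct comparisons too. Hepta differed from penta at 13.5% of genes in the chromosome 1 stretch and 9.89% in the chromosome 5 stretch, against 2.18% outside both. From hexa it differed at 9.51% and 5.30%, against 3.33% outside both. From miR it differed at 13.5% and 10.4%, against 8.54% outside both. The other lines were also set against Col in the chromosome 1 and 5 stretches. Hexa differed from Col at 8.76% and 14.4%, against 6.76% outside both. The miR line differed from Col at 24.2% and 21.7% (19.4% outside) and penta at 2.63% and 3.06% (2.91%). Higher shares against Col in these stretches were thus not particular to hepta. On chromosome 3, windows 5 to 10 were ordinary between hepta and Col (11.3%) but held 11.6% calls between hepta and hexa, against 2.61% on the rest of that chromosome. In those windows hexa differed from Col at 14.0% of genes (5.79% on the rest), and hepta from penta at 1.25% (1.74%). Of the 64 named genes on one side of all groups, 27 lay in the chromosome 1 stretch (3.38% of its genes), 13 in the chromosome 5 stretch (1.53%) and 10 in the first 3 windows of chromosome 4 (4.26%), where 7 were lower, AT4G02540 with them. The other 14 were spread over 10341 genes (0.135%).

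**Figure D4:**
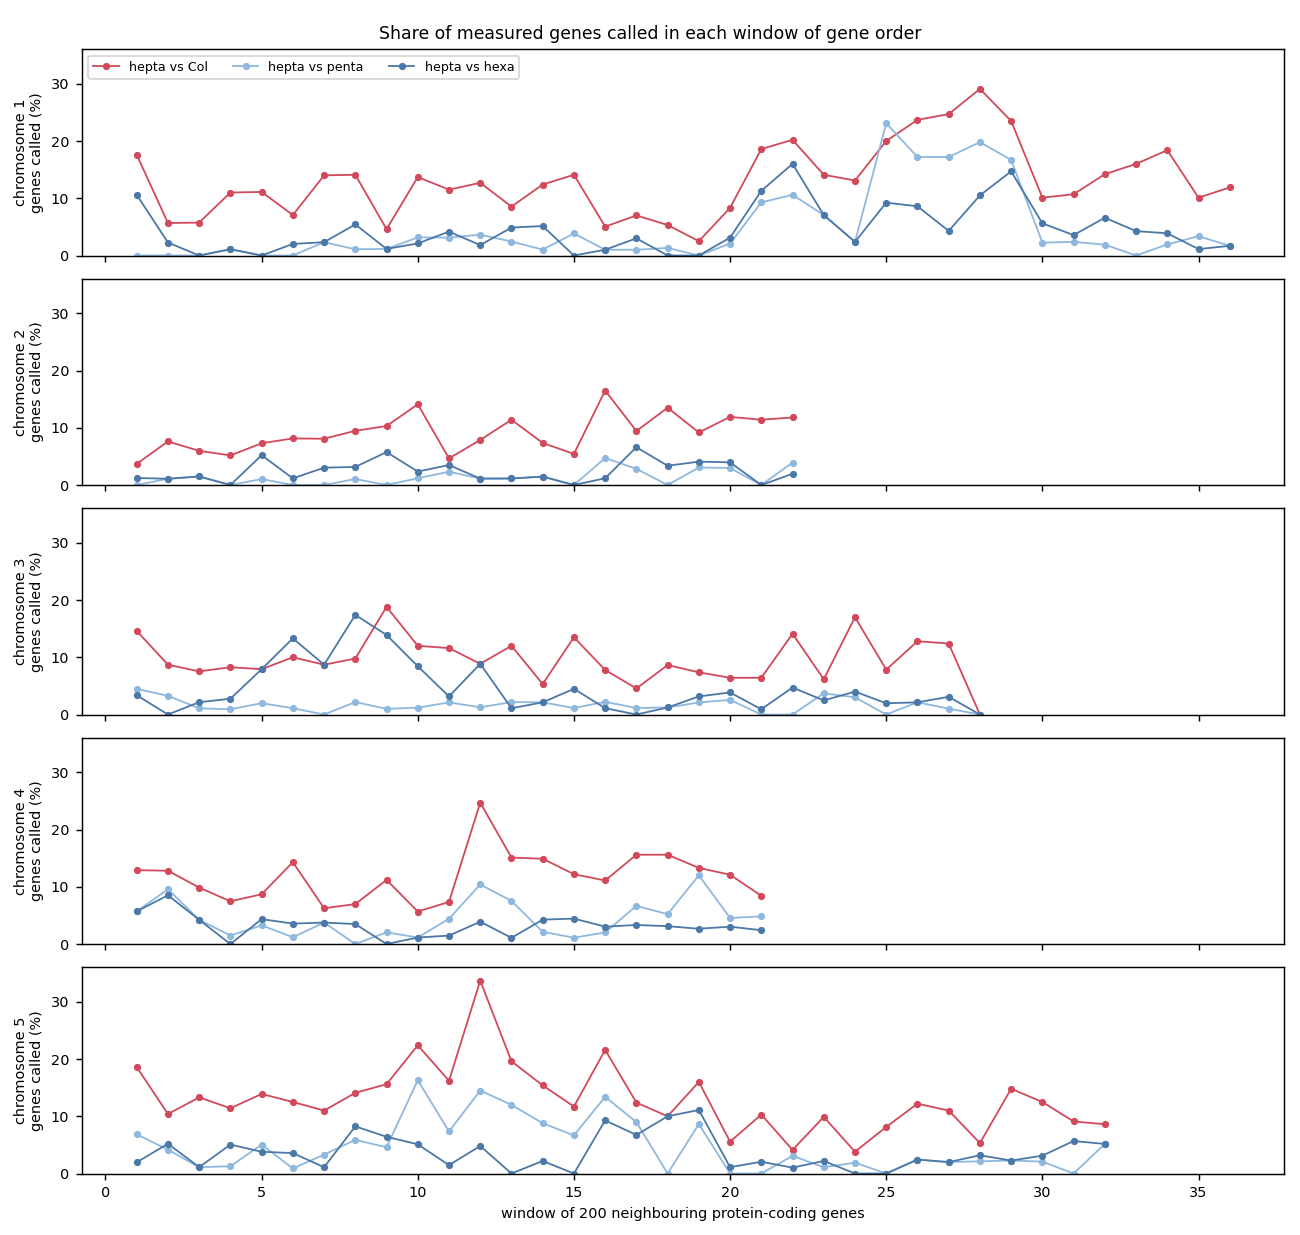
Percent of measured genes called by limma in each window of 200 neighbouring protein-coding genes on chromosomes 1 to 5, for hepta against Col (red), penta (light blue) and hexa (dark blue). The share against Col reaches 29.1% on chromosome 1 and 33.7% on chromosome 5, and the share against hexa rises on chromosome 3 where that against penta does not.

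The 11 genes with an ACS symbol in the annotation lay in windows with 3.81% to 24.7% of genes called between hepta and Col. They were picked by symbol alone, which does not show that each makes an ACC synthase. Apart from ACS10, none of them lay in the chromosome 1 or chromosome 5 stretch. ACS10 was in window 27 of chromosome 1 (24.7%), ACS2 in window 1 of chromosome 1 (15 of 85 genes) and ACS7 in window 14 of chromosome 4 (14.9%), while the window of ACS12 on chromosome 5 had 3.81%. Which of these carry mutations in hepta was not analysed here. Of 5814 pairs of genes next to each other with both measured, 65 (1.12%) were called in the same direction. Another 34 were called in opposite directions. Of the single genes in the windows 11.6% were called, and the number of pairs that this share alone would give was not worked out. PORB and AT4G27450 (1.11 and 1.42) and BGLU45 and BGLU46 (0.82 and 0.44) were pairs called in the same direction. The BGLU46 call was lost in several settings, as given above. The 65 became 40 and 41 without hepta replicate 1 and 2, and 28 and 42 without Col replicate 1 and 3.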

How the data were processed

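Labelled RNA was hybridized to one-colour Affymetrix arrays, 1 per sample. The values are the authors' deposited log2 levels, 1 per probe set and array, made with RMA per the submitters' processing notes. The sources used here give neither its version nor which arrays it was run on. RMA pulls differences at low signal towards 0, and a dim probe set may hold no transcript. Arrays were grouped by title, and precision is limited by having 3 of them per group.

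Of 22810 probe sets, 64 controls were left out and fitted apart. The platform annotation and the RefSeq table of TAIR10.1 named a single gene for 13513 of 22746 probe sets (1580 with a symbol), while 503 matched several genes and 8730 were unnamed. Where a gene had several probe sets the one with the highest mean was taken. limma 3.58.1 in R 4.3.3 was fitted (lmFit, eBayes) with 1 coefficient per group over the 15 higher order arrays and no filter. Two-sided p-values were corrected by Benjamini-Hochberg within each comparison. Values are mean log2 level ± SD, and differences are hepta minus the other group with their SE. On simulated data with 200 changed probe sets of 22746, the hepta against Col fit found 90% of log2 changes of 0.5, 100% of those of 1, and made 8 false calls. The simulated noise was independent between probe sets, and far fewer probe sets were changed than the 2739 called here. These rates therefore need not hold for the real comparison.

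Genes were named as the 15 largest rises and 15 largest falls called with non-overlapping arrays, the same among genes with a symbol, called list members, and 5 and 5 for each other line. A selection of them is described. The genes on one side of all groups, GSTU15, GSTU20 and the list members that were not called were named outside this rule, after their values were seen. The members and lists were chosen with earlier results of these data known. The alternatives were the 6 arrays alone, a second quantile normalization, probe sets with a mean under 4.22 left out, a trended robust prior, the replicate number as a block, leaving out each array, and averaging a gene's probe sets.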

Additional observations from a re-analysis of the deposited data

Results flagged for a closer look

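Of 19 control probe sets for plant transcripts, which the comparisons above leave out, 2 differed between hepta and Col, both for ribosomal RNA. The 25S ribosomal RNA control was at 6.89, 7.21 and 7.04 in Col and 6.13, 6.42 and 6.57 in hepta, which puts hepta lower by -0.67 ± 0.13 on the log2 scale (limma adjusted p = 0.0042) without overlap. The 5S ribosomal RNA control was at 3.70, 3.53 and 3.56 in Col and 3.99, 3.95 and 3.74 in hepta, 0.30 ± 0.08 higher (adjusted p = 0.037). Hexa and miR arrays lay at 5.97 to 6.55 for 25S and penta arrays at 6.79 to 6.97. The part of these controls in the gene differences was not tested.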

How the results depend on the processing

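Calls between hepta and Col numbered 2739, and 2535 on the 6 arrays alone, 2788 after a second quantile normalization, 2820 without dim probe sets, 2845 with a trended robust prior and 1797 to 2394 without 1 array each. Calls ranged from 575 to 660 against hexa, 554 to 705 against penta and 1411 to 1976 against miR without 1 array, and were 1392 against miR on the 6 arrays alone (2182 as reported); the cause was not tested. Called list genes ranged from 33 to 44 (47 as reported) and same-direction neighbours from 28 to 54 (65) without 1 array. Averaging a gene's probe sets gave 47 called list genes. Some of these list alternatives, and those of the neighbours, the chromosome stretches and the genes apart from all groups, were chosen after seeing the data. Without 1 array the called share was 16.3% to 18.6% in the chromosome 1 stretch and 13.4% to 16.0% in the chromosome 5 stretch. Total calls were lower in these fits too, and the shares outside the stretches are not given for them. Probe sets on one side of all groups numbered 77 to 93 without 1 hepta array (99). Of 95 named genes of hepta against Col, 19 lost the call in at least 1 setting, and 0 turned direction. No alternative was run for the control probe sets.

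With the replicate number as a block, calls were 2785 against Col, 927 against hexa, 841 against penta and 2238 against miR, with 52 list genes and 67 neighbouring pairs. All of these counts were higher than those reported without the block. Same-numbered hepta and Col arrays deviated from their group means with correlations of -0.0073, 0.080 and -0.018. Between hepta and the other lines such correlations ranged from -0.18 (penta, replicate 1) to 0.14 (hexa, replicate 1). With so few arrays per group these values cannot decide whether same-numbered arrays were handled together, and this was not tested.

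With 3 arrays per group the fit limits small differences: a log2 change of 0.5 was recovered in 90% of simulated cases. That rate comes from independent noise and need not hold for the real arrays. Dim probe sets have compressed differences, and 8730 probe sets, the ACS genes' among what was not analysed here, carried no gene name.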
